A study of Mus musculus with 9 samples.

Results

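Collagen genes were followed in 9 tumours that LLC cells, a mouse Lewis lung carcinoma line, formed under the skin. A gene belonged to the set when its name had the form Col, digits, a, digits and its counts summed to at least 90 over the 9 tumours. Of 34745 genes in the table, 44 had such a name and 28 of these reached the minimum. The lowest members inside the minimum were Col2a1 with 97 counts and Col17a1 with 138, and the nearest genes outside it were Col4a6 with 89 and Col6a5 with 79. All 28 members also passed the filter on low counts. The set held 10 fibrillar chains, 2 chains of the basement membrane network, 3 chains of the basement membrane zone, 5 fibril-associated chains, 4 beaded-filament chains, 1 short-chain network chain, 2 transmembrane chains and Col28a1, which stands outside these classes.

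The tumours grew in the flank of male wild-type C57BL/6 mice (6 to 8 of age, with no unit in the labels), and mice were randomised near a tumour volume of 100 mm3. The isotype group received a control antibody at 10 mg/kg. The anti-PDL1 group received an antibody against PDL1, a ligand that restrains T cells, at 10 mg/kg. The BTZ+anti-PDL1 group received that antibody at 10 mg/kg with BTZ (bortezomib, a proteasome inhibitor) at 0.5 mg/kg, and every agent was given into the peritoneum. Each group had 3 tumours, and no group received BTZ alone, so the part of BTZ can be read only on top of anti-PDL1. The titles of the isotype libraries say blank, while their treatment label says isotype. The labels call the cells lung adenocarcinoma; Nkx2-1, Sftpc and Sftpb, which define lung epithelium, had no count in any tumour and Epcam was below the filter. The other lung adenocarcinoma markers that passed the filter, 6 of 11 in all, were Krt8, Krt18, Krt19, Cdh1, Muc1 and Napsa; Napsa, an aspartic protease of lung epithelium, had 4.16 to 8.96 CPM (counts brought to a common library size and scaled by the TMM method), Krt18 averaged 68.4 FPKM (fragments for a given length and library size) and Vim, a mesenchymal filament, 310 FPKM.

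Collagens are secreted proteins in which 3 alpha chains wind into a triple helix. Fibrillar collagens (types I, III and V here) assemble into the cables that give tissue its tensile strength, type IV forms the sheet-like network of basement membranes around vessels and epithelia, and fibril-associated collagens decorate the surface of fibrils. Fibroblasts make most fibrillar collagen in solid tumours, while endothelial cells, pericytes and tumour cells also make type IV. In bulk tumour RNA, fewer cells of a type and less RNA per cell cannot be told apart, and neither can transcripts of the LLC cells and of host cells.

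Start regions are shown from RefSeq (GRCm38.p6, the assembly of the build mm10) for Col3a1, the type I chain Col1a2 and the pair Col4a1 and Col4a2. Col3a1 and Col1a2 differed in their range over tumours, while Col4a1 and Col4a2 rose and fell together. A link of these sequences to the levels was not tested. For Col3a1 the stretch is the whole 250 bases before the start, at chr1:45311288-45311537 on the plus strand, with a TATAAA match in capitals. For Col1a2 it is the 123 bases of the upstream window that lie outside annotated exons, at chr6:4505370-4505492 on the plus strand, with 2 GGGCGG matches in capitals. That stretch ends short of the RefSeq start at chr6:4505618, and the bases between are exonic. It lies inside the counted gene, whose row begins at 4504814. The window also held 1 CCAAT match outside the bases shown. For the type IV pair it is the 22 bases from the Col4a2 start to the Col4a1 start, at chr8:11312805-11312826 on the plus strand, where the 2 genes lie head to head and their first exons overlap, again with GGGCGG in capitals.
Col3a1: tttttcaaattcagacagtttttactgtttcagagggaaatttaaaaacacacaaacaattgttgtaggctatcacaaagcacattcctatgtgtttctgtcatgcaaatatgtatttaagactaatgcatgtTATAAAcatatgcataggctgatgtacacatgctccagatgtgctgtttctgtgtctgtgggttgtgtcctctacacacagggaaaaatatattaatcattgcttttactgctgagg
Col1a2: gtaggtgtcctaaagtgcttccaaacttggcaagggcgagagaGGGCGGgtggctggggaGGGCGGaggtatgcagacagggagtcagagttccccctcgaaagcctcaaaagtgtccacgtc
Col4a1/Col4a2: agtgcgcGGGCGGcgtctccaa

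Promoter windows were at hand for 22 of the 28 members, as 24 windows. TATAAA, searched on both strands within 250 bases before the start, was found in 3 of these 24 windows (those of Col3a1, Col11a2 and Col17a1) and in 12.4% of all 32851 windows. GGGCGG was found in 14 of 24 member windows and in 32.7% of all windows, and CCAAT in 9 of 24 and in 33.8%. No run of bases matches more than 1 of the 3 motifs, though 1 window can hold several. A match is a description of letters and was not tied to binding or to any level below.

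Libraries held 18.52 M to 21.51 M counts each. The tumours differed in transcripts of skeletal muscle and fat, and whether these came from adjacent tissue was not tested. The summed level of 14 skeletal muscle genes ran from 6.77 to 3032 CPM in isotype tumours, from 117 to 1123 in anti-PDL1 tumours and from 7.18 to 870.1 in BTZ+anti-PDL1 tumours. None of the 14 was at 0 in all tumours. The 8 adipocyte genes summed to 19.2 to 239 CPM in isotype, 32.2 to 95.9 in anti-PDL1 and 22.3 to 85.6 in BTZ+anti-PDL1 tumours, with isotype 3 highest and none at 0 in all. The 28 collagen genes took between 1.19% and 1.73% of all counts. The isotype 1 tumour stood apart in its type I collagen, as given below, so results that rest on it are stated with and without it. The tumours come from separate mice of a randomised experiment as far as the labels tell.

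Col3a1, the single chain of type III collagen, a fibrillar collagen of pliable tissue, was the most abundant collagen per unit of length. Its mean was 595 FPKM, against 148 for Col6a1, 113 for Col4a1, 98.3 for Col18a1 and 94 for Col1a1. Lengths affect this order. The length implied by the deposited FPKM exceeded the longest coding transcript for all members where it was derived, except Col8a1. For Col8a1 both were 5108 bases. Examples are Col3a1 (10734 against 5564 bases), Col1a2 (16209 against 5348 bases) and Col18a1 (11213 against 5595 bases). Divided by the longest coding transcript instead, Col3a1 still came first, with 1148 CPM per kilobase, followed by Col18a1 with 197 and Col6a1 with 164. The order behind Col3a1 depended in part on the length used.

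**Figure D1:**
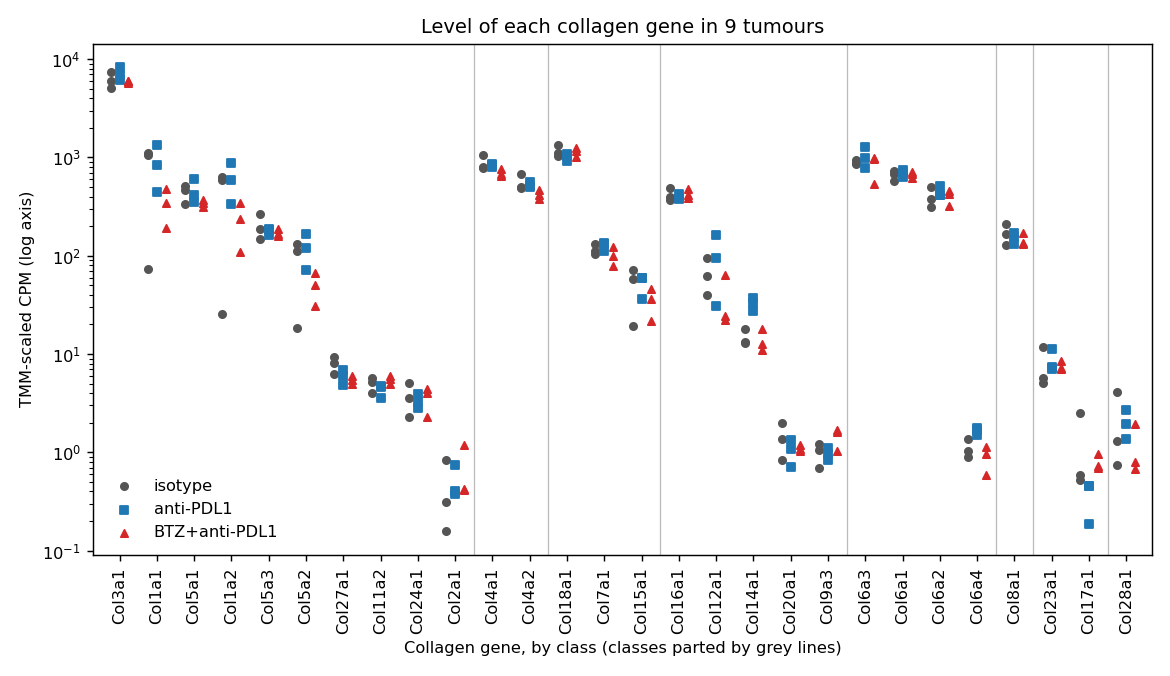
Each point is the TMM-scaled CPM (log axis) of 1 collagen gene in 1 tumour, with genes ordered by class and grey lines between classes. Grey circles are isotype, blue squares anti-PDL1 and red triangles BTZ+anti-PDL1 tumours; Col3a1 lies between 5036 and 8282 CPM in every tumour, while Col1a1 lies between 73 and 1348.

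Among the fibrillar chains, Col3a1 (chr1:45311538-45349706 on mm10) stood at 7324, 5969 and 5036 CPM in isotype tumours 1, 2 and 3, at 6946, 8282 and 6147 in anti-PDL1 tumours and at 5779.9, 6033 and 5989 in BTZ+anti-PDL1 tumours. Its highest and lowest tumours differed 1.64-fold. This range was above the median of all tested genes (1.46-fold), and the BTZ+anti-PDL1 tumours lay closest together. Isotype 1 held one of the higher values.

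Col1a1 (chr11:94936224-94953042), which supplies 2 of the 3 chains of each type I molecule, had 73, 1113 and 1064 CPM in isotype tumours, 442, 1348 and 832 in anti-PDL1 tumours and 346, 191 and 473 in BTZ+anti-PDL1 tumours. Its partner Col1a2 (chr6:4504814-4541544) had 25.8, 596 and 633 CPM in isotype tumours, 339.8, 869 and 591 in anti-PDL1 tumours and 237, 108 and 343 in BTZ+anti-PDL1 tumours. Both type I genes were lowest in isotype 1 and highest in anti-PDL1 2, and both were next lowest in BTZ+anti-PDL1 2. The ranges over the 9 tumours were 18.5-fold for Col1a1 and 33.7-fold for Col1a2, and 7.06-fold and 8.04-fold over the 8 tumours without isotype 1. Isotype 1 thus carried abundant type III collagen transcript with little of type I. The ratio of Col3a1 to Col1a1, each per kilobase of its longest coding transcript, was 107 in isotype 1 and lay between 5.04 and 33.7 in the other 8 tumours.

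The type V chains, which sit inside type I fibrils and limit their diameter, differed in how widely they ranged. The order of the tumours was nonetheless largely shared by Col5a1 and Col5a2, as given below. Col5a1 had 339, 509.9 and 464 CPM in isotype tumours, 355, 601 and 414 in anti-PDL1 tumours and 340.2, 313 and 367 in BTZ+anti-PDL1 tumours, a 1.92-fold range. Col5a2, chosen for description after its values were seen, had 18.4, 131 and 113 CPM in isotype tumours, 71.3, 166 and 121 in anti-PDL1 tumours and 49.8, 31 and 66 in BTZ+anti-PDL1 tumours, a 9.05-fold range that was 5.35-fold without isotype 1. Its lowest and highest tumours were those of Col1a1 and Col1a2. Col5a3 ran from 147 to 268 CPM. The remaining fibrillar chains were low. Col27a1, a chain of thin fibrils in cartilage and other tissues, had 8.03, 9.35 and 6.22 CPM in isotype tumours, 4.85, 6.8 and 6.04 in anti-PDL1 tumours and 5.96, 5.4 and 4.94 in BTZ+anti-PDL1 tumours. Its isotype tumours lay above all BTZ+anti-PDL1 tumours and overlapped the anti-PDL1 tumours. Col11a2 ran from 3.55 to 6.04 CPM, Col24a1 from 2.3 to 5.05 and Col2a1, the main fibrillar collagen of cartilage, from 0.157 to 1.2. Of 10 cartilage and bone markers Chad was at 0 in all tumours and 8 were below the filter.

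The 2 members of the basement membrane network were Col4a1 and Col4a2, which form the type IV molecule found in nearly all basement membranes. Col4a1 had 773, 1055 and 799.6 CPM in isotype tumours, 806, 828 and 849 in anti-PDL1 tumours and 644, 677 and 767 in BTZ+anti-PDL1 tumours. Col4a2 had 496, 676 and 486 CPM in isotype tumours, 497, 508 and 558 in anti-PDL1 tumours and 382, 419.7 and 470.1 in BTZ+anti-PDL1 tumours. For both genes all 3 BTZ+anti-PDL1 tumours lay below all 6 other tumours. The tissue-restricted type IV chains were below the count minimum, with 89 counts in all for Col4a6, 47 for Col4a5, 16 for Col4a4 and 6 for Col4a3.

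In the basement membrane zone, Col18a1, whose C-terminal fragment is endostatin, was the most abundant, with 1119, 1352 and 1026 CPM in isotype tumours, 1074, 928 and 1029 in anti-PDL1 tumours and 1164, 1005 and 1239 in BTZ+anti-PDL1 tumours. The groups overlapped within a 1.46-fold range. Col7a1, the chain of the anchoring fibrils under epithelia, had 111, 133 and 104 CPM in isotype tumours, 113, 136 and 130.2 in anti-PDL1 tumours and 78.4, 99.5 and 122 in BTZ+anti-PDL1 tumours. Col15a1, a relative of Col18a1, had 19.2, 71.3 and 58 CPM in isotype tumours, 35.9, 58.7 and 58.9 in anti-PDL1 tumours and 36.1, 21.5 and 45.7 in BTZ+anti-PDL1 tumours. Like the type I genes, Col15a1 was lowest in isotype 1 and next lowest in BTZ+anti-PDL1 2, over a 3.71-fold range. Col18a1 shares 8825 bases with Slc19a1 on the opposite strand, whose total was 2.84% of its own, and the strand setting of the counting was not given.

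Among the fibril-associated chains, Col16a1 was steady, with 367, 486 and 399.9 CPM in isotype tumours, 377, 422 and 389.7 in anti-PDL1 tumours and 411, 383 and 479 in BTZ+anti-PDL1 tumours, a 1.33-fold range. Col12a1, which binds type I fibrils, had 39.6, 95.2 and 62.5 CPM in isotype tumours, 30.6, 162 and 95.3 in anti-PDL1 tumours and 22, 24.4 and 64 in BTZ+anti-PDL1 tumours. Its groups overlapped and its range was 7.37-fold.

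Col14a1 (chr15:55307750-55520803), a chain that binds the surface of fibrils and is expressed by many tissue-resident fibroblasts, had 12.9, 13.4 and 18 CPM in isotype tumours, 36.9, 33.4 and 27.1 in anti-PDL1 tumours and 18, 12.6 and 11.1 in BTZ+anti-PDL1 tumours. Every anti-PDL1 tumour lay above every tumour of the other groups, and the isotype and BTZ+anti-PDL1 values overlapped. Isotype 1, lowest for Col1a1, was not set apart in Col14a1. Col20a1 (0.71 to 1.98 CPM) and Col9a3 (0.693 to 1.7 CPM) were near the minimum. The row of Col20a1 shares 741 bases on the same strand with 9230112E08Rik, which had 1745 counts against 210, so its value is uncertain, and Col9a3 overlaps Tcfl5 on the opposite strand.

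Of the beaded-filament chains of type VI, which link cells to the surrounding matrix, 3 were abundant and their ranges differed. Col6a1 had 571, 677 and 732 CPM in isotype tumours, 693, 741 and 635 in anti-PDL1 tumours and 712, 678 and 616 in BTZ+anti-PDL1 tumours, the narrowest range of all members (1.3-fold). Col6a2 had 312, 381 and 497 CPM in isotype tumours, 412, 514 and 414 in anti-PDL1 tumours and 451, 424 and 322 in BTZ+anti-PDL1 tumours. Both were lowest in isotype 1 and highest in anti-PDL1 2, like the type I genes but over far narrower ranges. Col6a3, the longest of these chains, had 864, 871 and 936 CPM in isotype tumours, 781, 1265 and 993 in anti-PDL1 tumours and 972, 976 and 543 in BTZ+anti-PDL1 tumours, with the lowest value in BTZ+anti-PDL1 3 and a 2.33-fold range, against 1.65-fold for Col6a2. Col6a4 was scarce, at 0.892, 1.04 and 1.36 CPM in isotype tumours, 1.5, 1.78 and 1.69 in anti-PDL1 tumours and 0.951, 0.588 and 1.14 in BTZ+anti-PDL1 tumours. Its anti-PDL1 values lay above all others, on 11 to 36 counts a tumour.

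Of the remaining members, Col8a1, a network chain of vessel walls, had 167, 208 and 129.5 CPM in isotype tumours, 132, 169 and 154 in anti-PDL1 tumours and 133, 134 and 169.6 in BTZ+anti-PDL1 tumours. The transmembrane chain Col23a1 had 5.77, 5.1 and 11.7 CPM in isotype tumours, 7, 11.3 and 7.31 in anti-PDL1 tumours and 7.26, 7.11 and 8.43 in BTZ+anti-PDL1 tumours. Neither gene had a group that stood clear of the others. Col17a1, a transmembrane chain of the hemidesmosomes of basal keratinocytes, had 0.525, 0.594 and 2.51 CPM in isotype tumours, 0.45, 0.457 and 0.187 in anti-PDL1 tumours and 0.951, 0.694 and 0.729 in BTZ+anti-PDL1 tumours. Its high value in isotype 3 came from 48 counts, against 4 to 19 elsewhere. The keratinocyte genes Krt5 (7.79 CPM) and Krt14 (5.38 CPM) were also highest in isotype 3, and the summed level of the 7 keratinocyte markers found was 15.8 CPM there and 0.676 to 2.05 CPM in the other tumours. No keratinocyte marker was at 0 in all tumours, all 7 were below the filter, and their part in the Col17a1 value was not tested. Col28a1, a chain linked to peripheral nerve, had 4.09, 0.742 and 1.31 CPM in isotype tumours, 2.7, 1.93 and 1.36 in anti-PDL1 tumours and 0.801, 1.92 and 0.676 in BTZ+anti-PDL1 tumours. Isotype 1 was highest. Among the 6 Schwann cell markers Cdh19 was at 0, Sox10 was below the filter, and the summed level lay between 43.1 and 54.4 CPM.

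**Figure D2:**
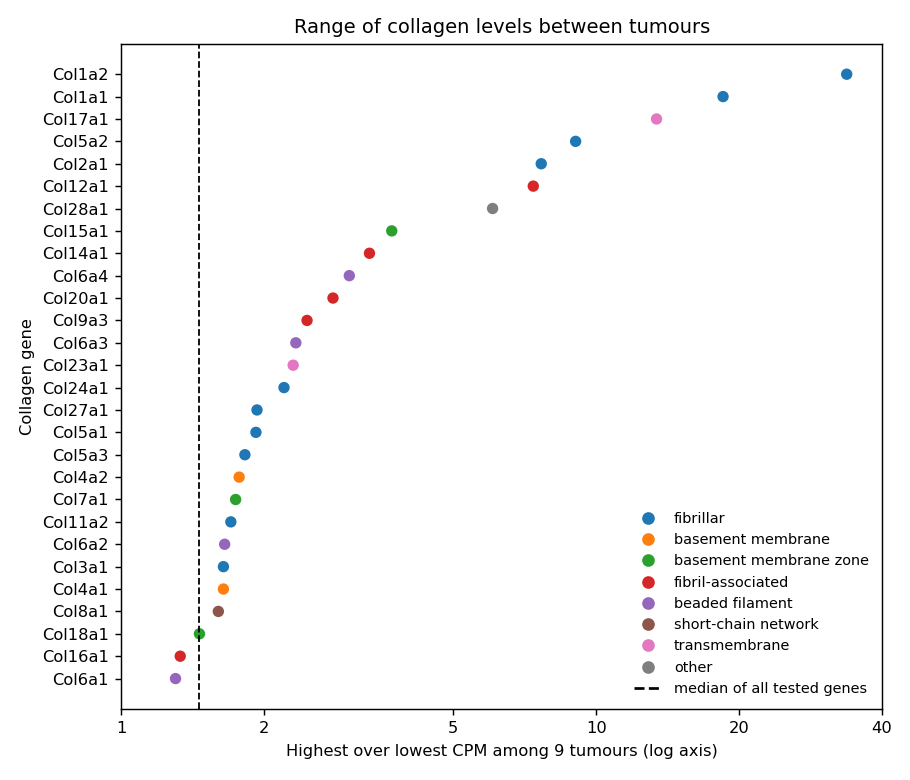
Each point is the highest over the lowest TMM-scaled CPM of 1 collagen gene among the 9 tumours (log axis), coloured by class, and the dashed line is the median of all 14506 tested genes (1.46). Col1a2 and Col1a1 reach 33.7 and 18.5, while Col6a1, Col16a1 and Col18a1 lie at or below the line.

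The median range over the 28 members was 2.25-fold, against 1.46-fold over the 14506 genes tested, and without isotype 1 these medians were 2.25-fold and 1.44-fold. Of all tested genes 98% had a smaller range than Col1a2, 97.4% a smaller range than Col1a1 and 95.9% a smaller range than Col5a2. For the scarce members Col17a1 (13.4-fold), Col2a1 (7.66-fold) and Col28a1 (6.05-fold), low counts widen the range. Isotype 1 was the lowest of the 9 tumours for 8 of 28 members (Col6a1, Col1a1, Col6a2, Col16a1, Col5a3, Col1a2, Col5a2 and Col15a1), anti-PDL1 2 was the highest for 11 and isotype 2 the highest for 10. The share of all tested genes at an extreme in each tumour was not counted, so these numbers need not be particular to collagens. Isotype 2 was also highest for 6 of 12 endothelial and 4 of 6 mesenchymal tumour cell markers.

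Other genes of the matrix and of fibroblasts, chosen after their values were seen, separated in the same way. Cthrc1, a secreted protein of matrix-producing fibroblasts, had 0.315, 11.4 and 11.6 CPM in isotype tumours, 3.3, 12.2 and 9.18 in anti-PDL1 tumours and 3.4, 0.641 and 3.69 in BTZ+anti-PDL1 tumours. Loxl1, an enzyme of the lysyl oxidase family, which cross-links collagen and elastin, had 3.46, 24.5 and 32.4 CPM in isotype tumours, 16.7, 34.9 and 23.1 in anti-PDL1 tumours and 11.8, 8.39 and 10.3 in BTZ+anti-PDL1 tumours. Mfap5, Mmp2, Adamts2, Loxl2 and Pi16 were likewise lowest in isotype 1 and next lowest in BTZ+anti-PDL1 2. Other fibroblast markers were divided. Thy1, a surface protein, was lowest in isotype 1 with 18.5 CPM against 21.7 to 37.4 elsewhere, as was Postn with 70.7. The receptor Pdgfra had 184, 153 and 178 CPM in isotype tumours, 163, 204 and 170.0 in anti-PDL1 tumours and 172, 197 and 172 in BTZ+anti-PDL1 tumours.

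The small fibril-binding proteoglycan Dcn was highest in isotype 1, with 888 CPM, and ran down to 376 CPM in isotype 3. The 12 fibroblast markers summed to 1961 to 3074 CPM in isotype, 2317 to 2536 in anti-PDL1 and 1882 to 2649 in BTZ+anti-PDL1 tumours, with isotype 1 highest, and none was at 0 in all tumours. Most of that sum in isotype 1 came from Dcn (888 CPM), Lum (882) and S100a4 (685), and the mean over the 12 genes of log2 CPM, each centred on its mean over tumours, was lowest there (-0.569, against -0.366 to 0.525 elsewhere). Of the 12 genes 5 were lowest in isotype 1 (Thy1, Postn, Cthrc1, Mfap5 and Pi16) and 5 highest (Dcn, Dpt, Fap, Lum and S100a4). The skeletal muscle genes summed to 6.77 CPM in isotype 1, with 73 CPM of Col1a1, to 8.96 in isotype 2, with 1113, and to 3032 in isotype 3, with 1064. The pericyte and smooth muscle list summed to 163, 245 and 422 CPM in isotype, 227, 256 and 226 in anti-PDL1 and 222, 161 and 147 in BTZ+anti-PDL1 tumours, with no gene at 0 in all tumours. The part of fibroblasts, muscle or pericytes in the type I levels was not tested.

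**Figure D3:**
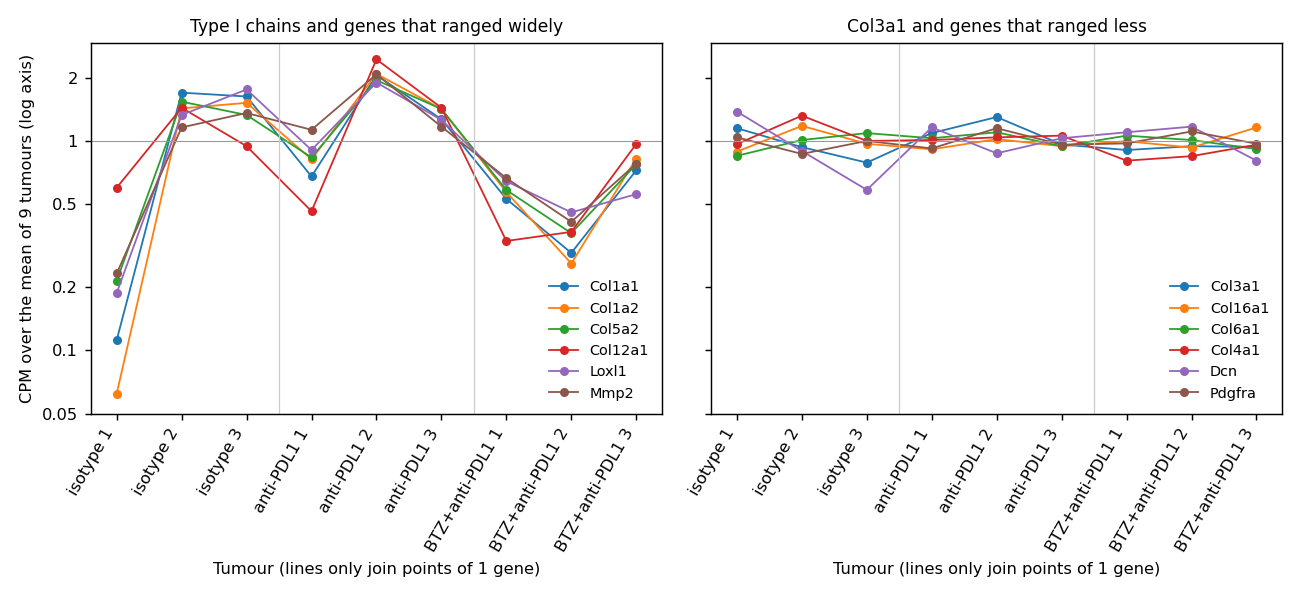
TMM-scaled CPM of each gene divided by its mean over the 9 tumours (log axis), by tumour, for type I chains with genes of wide range (left) and Col3a1 with genes that ranged less (right). Lines only join the points of 1 gene; on the left isotype 1 lies at 0.112 for Col1a1 and 0.0621 for Col1a2, on the right it lies at 1.15 for Col3a1 and 1.38 for Dcn.

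Pairs of partner chains, and 1 pair of neighbouring genes that are not partners, were compared over the 9 tumours on the log2 CPM scale, 6 pairs in all, with exact two-sided permutation tests and Benjamini-Hochberg adjustment over the 6. For Col1a1 and Col1a2, Pearson's r was 0.99 (exact permutation p = 1.38e-05, adjusted 5.79e-05) and Spearman's rho 0.98 (p = 4.96e-05, adjusted 0.000149), and r was 0.98 without the 2 tumours farthest from the median, isotype 1 and anti-PDL1 2. For Col4a1 and Col4a2, r was 0.99 (exact permutation p = 1.93e-05, adjusted 5.79e-05), rho 0.98 (p = 4.96e-05, adjusted 0.000149) and r without 2 tumours 0.95. For Col6a1 and Col6a2, r was 0.92 (exact permutation p = 0.000372, adjusted 0.000744), rho 0.92 (p = 0.00131, adjusted 0.00197) and r without 2 tumours 0.80. The levels of these partner chains thus rose and fell together over the 9 tumours, with small changes of order. Only r was computed without the 2 outermost tumours. There it was weakest for Col6a1 and Col6a2 (exact permutation p = 0.0335, unadjusted).

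For Col5a1 and Col5a2, r was 0.84 (exact permutation p = 0.00486, adjusted 0.0073), rho 0.95 (p = 0.000353, adjusted 0.000705) and r without 2 tumours 0.81. The order was largely shared although the sizes of the changes were not, since Col5a1 over Col5a2 per kilobase was 14.6 in isotype 1 and 2.7 to 7.95 elsewhere. For Col6a1 and Col6a3, r was 0.53 (exact permutation p = 0.146, adjusted 0.176), rho 0.50 (p = 0.178, adjusted 0.213) and r without 2 tumours 0.35. Col3a1 and Col5a2 are neighbours on chromosome 1, and there r was -0.06 (exact permutation p = 0.878, adjusted 0.878), rho 0.05 (p = 0.912, adjusted 0.912) and r without 2 tumours -0.20. No relation was detected for these last pairs in 9 tumours. The groups are pooled in these values, since 3 tumours a group are too few for an r within a group. Differences between groups therefore enter r. The pairs were also run on deviations from the group means, with the same permutation test. No pair changed sign or crossed an adjusted p of 0.05 there. Deviations within a group are tied to one another, so that test is approximate.

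Ratios of partner chains differed in how steady they were. Col4a1 over Col4a2 per kilobase of the longest coding transcript lay between 1.48 and 1.65 in all tumours. Col1a1 over Col1a2 lay between 1.17 and 1.68 in 8 tumours and was 2.55 in isotype 1; the deposited FPKM gave 3.04 to 4.37 and 6.61, so the place of isotype 1 held under both lengths while the size of the ratio did not.

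**Figure D4:**
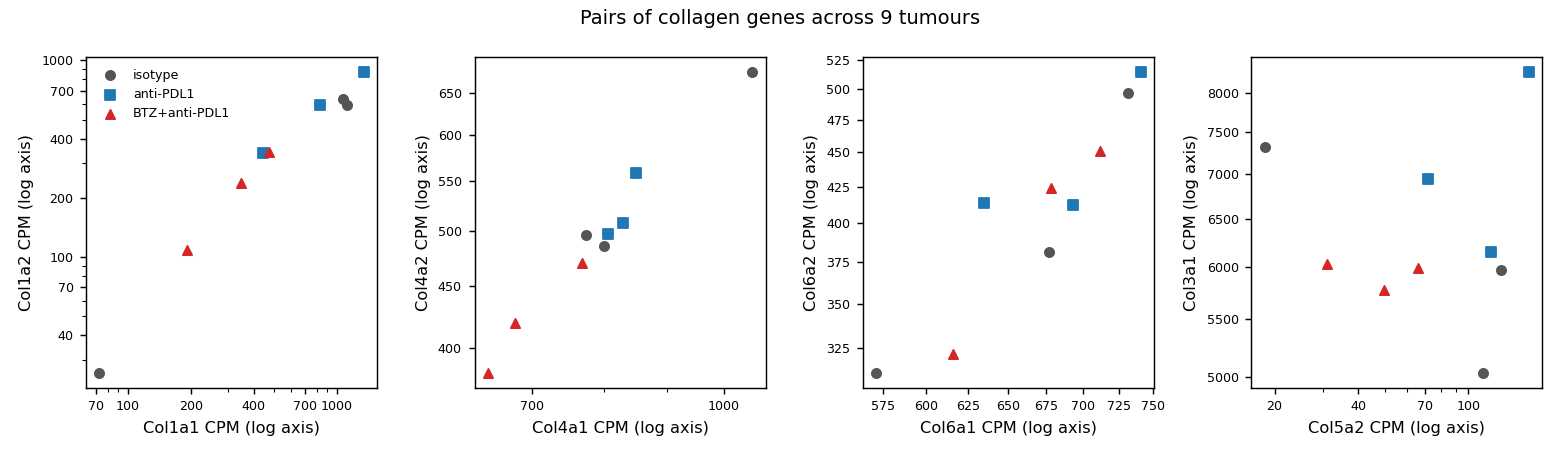
Each point is 1 tumour, with TMM-scaled CPM on both axes (log axes) for Col1a1 with Col1a2, Col4a1 with Col4a2, Col6a1 with Col6a2, and the neighbouring genes Col5a2 with Col3a1. Grey circles are isotype, blue squares anti-PDL1 and red triangles BTZ+anti-PDL1 tumours; r is 0.99, 0.99, 0.92 and -0.06 in these panels.

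The treatment comparisons were tested with the quasi-likelihood F test of edgeR in 1 fit of all genes over all 9 tumours. Changes are log2 fold changes with their standard error (SE), and genes count as called where the p adjusted over all 14506 genes by Benjamini-Hochberg was under 0.05. The 3 comparisons share groups of tumours, so their values are given side by side and are not independent of each other.

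Anti-PDL1 against isotype asks what the antibody did alone. No collagen gene was called of 28, against 0.0138% of all genes tested (2 of 14506). An unadjusted p under 0.05 was reached by 2 collagen genes, Col14a1 higher and Col17a1 lower, against 6.35% of all genes, and DESeq2 called 1, Col14a1. The number at an unadjusted p under 0.05 was 1 to 4 with each tumour left out, with 4 without isotype 1 or isotype 3 and 1 without anti-PDL1 3. The groups did not overlap for 3 of 28, against 12.7% of all genes: 2 were higher (Col14a1 and Col6a4; 6.08% of all genes) and 1 lower (Col17a1; 6.61%). Fitted values were higher for 15 of 28, against 49% of all genes, and lower for 13, against 51%, with a median of 0.05 (all genes, -0.0034).

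Col14a1 had a log2 fold change of 1.14 ± 0.207 (SE), from 14.8 ± 2.84 (SD, n = 3) to 32.5 ± 4.96 CPM (SD, n = 3), with an adjusted p of 0.597 by edgeR and 0.000402 by DESeq2. By its unadjusted p of 0.000329 it stood 8th of 14506 genes. The value lay between 1.03 and 1.31 with each tumour left out in turn, and it was 0.99 ± 0.13 with the muscle score as a covariate (adjusted p = 0.122). The difference was thus large against the spread within groups, but whether it was called depended on the tool.

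Among the other named members, Col17a1 had -1.72 ± 0.652 (adjusted p = 0.763), which was -0.62 at its smallest with 1 tumour left out, and Col27a1 -0.42 ± 0.196 (adjusted p = 0.763). Col1a1 had 0.22 ± 0.929 and Col1a2 0.52 ± 1.03 (adjusted p = 0.976 and 0.942), with standard errors far above the median of 0.138 over all genes. Without isotype 1 these were -0.31 ± 0.528 and -0.03 ± 0.552, so the direction for type I collagen rested on that tumour. Without anti-PDL1 2, Col1a1 was at -0.23 and Col1a2 at 0.16. Class medians were 0.13 for fibrillar, -0.08 for basement membrane and -0.02 for fibril-associated chains, none of which held a called gene. All 3 changed sign with 1 tumour left out: the fibrillar median was -0.09 without isotype 1, -0.015 without isotype 3 and -0.14 without anti-PDL1 2, the basement membrane median 0.085 without isotype 2, and the fibril-associated median 0.16, 0.052, 0.03 and 0.073 without isotype 1, isotype 2, isotype 3 or anti-PDL1 3.

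BTZ+anti-PDL1 against anti-PDL1 asks what BTZ added. No collagen gene was called of 28, against 0.0138% of all genes (2 of 14506), and DESeq2 called 1, again Col14a1. An unadjusted p under 0.05 was reached by 3 members, all lower (Col14a1, Col6a4 and Col4a2), against 5.82% of all genes. This number depended on the fit: it was 7 without isotype 1 (Col1a1 and Col1a2 among them), 7 by DESeq2, 7 of 27 (1 of them higher) in the fit of only the 6 tumours compared, 6 without BTZ+anti-PDL1 3, 5 without anti-PDL1 1, 2 without BTZ+anti-PDL1 1, and 1 without anti-PDL1 2, anti-PDL1 3 or BTZ+anti-PDL1 2. The groups did not overlap for 8 of 28, against 14.3% of all genes: 6 lower (Col14a1, Col6a4, Col4a2, Col4a1, Col3a1 and Col5a2; 6.99% of all genes) and 2 higher (Col11a2 and Col17a1; 7.33%). Fitted values were lower for 20 of 28 members, against 49.2% of all genes, and higher for 8, against 50.8%, with a median of -0.21 (all genes, 0.0029).

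Col14a1 had -1.22 ± 0.208, from 32.5 ± 4.96 (SD, n = 3) to 13.9 ± 3.62 CPM (SD, n = 3), with an adjusted p of 0.293 by edgeR and 3.47e-05 by DESeq2. It stood 7th of 14506 genes by its unadjusted p of 0.000192, and lay between -1.45 and -1.08 with each tumour left out. Col6a4 had -0.88 ± 0.326 (adjusted p = 0.839). The BTZ+anti-PDL1 level of Col14a1 was thus close to the isotype level.

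The type IV chains differed by a small amount with small errors: Col4a2 had -0.30 ± 0.132 (adjusted p = 0.855) and Col4a1 -0.25 ± 0.12 (adjusted p = 0.872). Type I chains were among the lowest fitted values, with wide errors: -1.38 ± 0.947 for Col1a1 and -1.39 ± 1.05 for Col1a2 (adjusted p = 0.886 for both). Their group means were 874 ± 454 (SD, n = 3) and 336 ± 141 CPM (SD, n = 3) for Col1a1, and 599.9 ± 265 (SD, n = 3) and 229 ± 118 CPM (SD, n = 3) for Col1a2. Of the 3 BTZ+anti-PDL1 tumours only BTZ+anti-PDL1 3 reached into the anti-PDL1 range for either chain. Without isotype 1, which is in neither group but enters the shared estimate of spread, the value for Col1a1 stayed at -1.38 with an SE of 0.484 (adjusted p = 0.718). Class medians were -0.19 for fibrillar, -0.27 for basement membrane and 0.08 for fibril-associated chains. The last was -0.13 without anti-PDL1 2, and on the log2 FPKM scale, where only 3 of the 5 fibril-associated chains could be fitted, it was -0.84 with a pseudocount of 1 and -1.17 with 0.1.

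BTZ+anti-PDL1 against isotype again gave no called collagen gene of 28, against 0.00689% of all genes (1 of 14506), and DESeq2 called none. An unadjusted p under 0.05 was reached by 3 members, all lower (Col4a2, Col4a1 and Col27a1), against 8.6% of all genes. It was reached by 8 without isotype 1, by 1 without BTZ+anti-PDL1 1 or BTZ+anti-PDL1 2, and by 0 without isotype 2. The groups did not overlap for these 3 and no other member, against 13% of all genes (6.03% lower and 6.96% higher). Col4a2 had -0.38 ± 0.132 (adjusted p = 0.54), from 553 ± 107 (SD, n = 3) to 424 ± 44.4 CPM (SD, n = 3). Col4a1 had -0.33 ± 0.12 (adjusted p = 0.543), from 876 ± 156 (SD, n = 3) to 696 ± 63.7 CPM (SD, n = 3), and Col27a1 -0.53 ± 0.197 (adjusted p = 0.543). Without isotype 2, the highest tumour for both type IV chains, Col4a1 was at -0.17 ± 0.0856 and Col4a2 at -0.21 ± 0.0974.

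Endothelial and pericyte markers were measured beside the type IV chains. All 12 endothelial markers had lower fitted values in BTZ+anti-PDL1 than in isotype tumours, 8 of them at an unadjusted p under 0.05 and none called, with a median of -0.49. Of all genes 50.3% were lower and 8.6% had such a p in either direction. In anti-PDL1 against isotype 11 of the 12 markers were also lower, with a median of -0.24. Isotype 2, the highest tumour for both type IV chains, was the highest for 6 of the 12 markers. Their summed level was 374 to 529 CPM in isotype, 388 to 462 in anti-PDL1 and 330.1 to 377 in BTZ+anti-PDL1 tumours. The most abundant per length, Cdh5, the cadherin of endothelial junctions, had -0.56 ± 0.169, and none of the 12 was at 0. Of the 10 pericyte and smooth muscle markers 9 had lower fitted values, 2 at an unadjusted p under 0.05 and none called, with a median of -0.37. Their part in the type IV values was not tested.

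Type I collagen in the same comparison had -1.16 ± 0.942 for Col1a1 and -0.87 ± 1.03 for Col1a2 (adjusted p = 0.748 and 0.832), and without isotype 1 these were -1.69 ± 0.526 and -1.42 ± 0.546 (adjusted p = 0.377 and 0.438). Col14a1 had -0.09 ± 0.207 (adjusted p = 0.916). Fitted values were lower for 21 of 28 members, against 50.3% of all genes, and higher for 7, against 49.7%, with a median of -0.22 (all genes, -0.0011). Class medians were -0.29 for fibrillar, -0.36 for basement membrane and -0.09 for fibril-associated chains. With each tumour left out the fibril-associated median ran from -0.32 to 0.012, so its sign was not fixed. The fibrillar median stayed between -0.46 and -0.14 and the basement membrane median between -0.43 and -0.19.

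**Figure D5:**
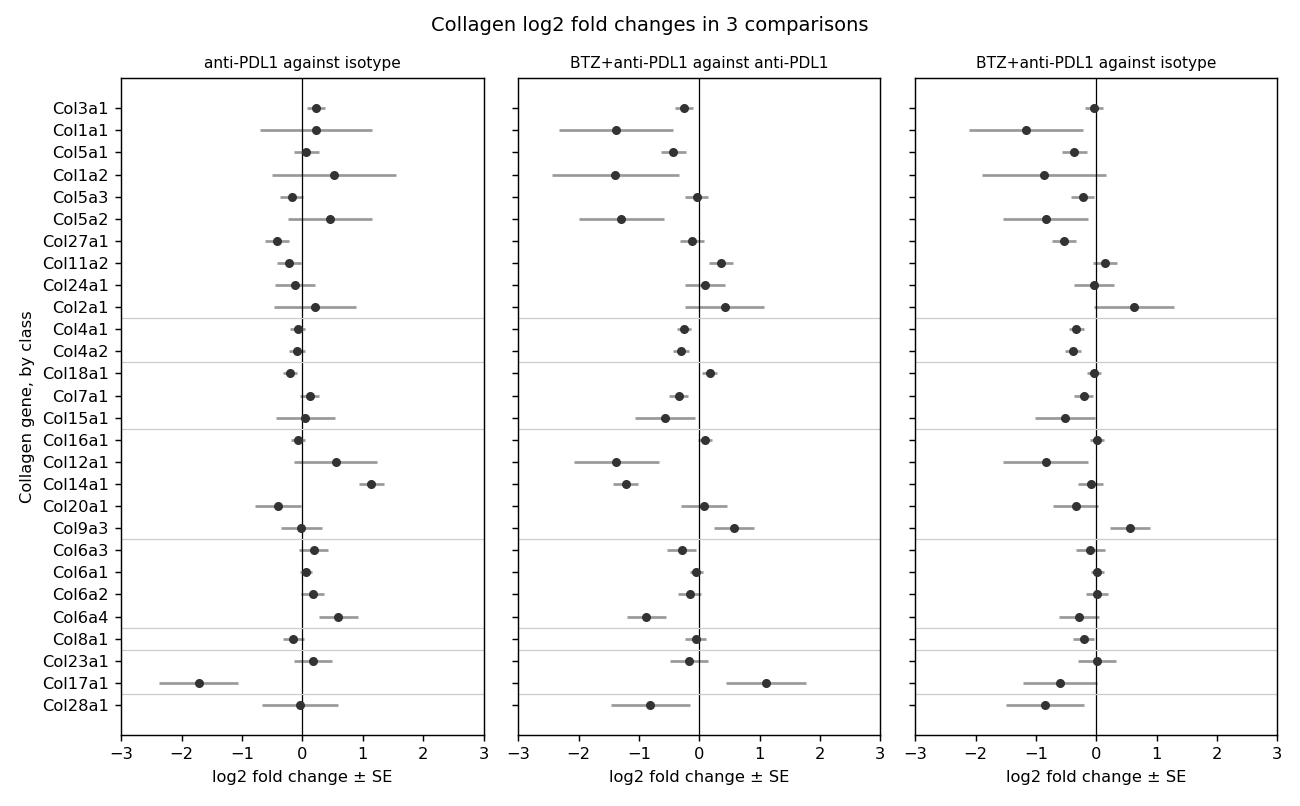
Log2 fold change (points) with its SE (bars) of each collagen gene in the 3 comparisons, ordered by class with grey lines between classes, from 1 edgeR fit. Col14a1 lies at 1.14, -1.22 and -0.09 with short bars, and Col1a1 and Col1a2 have the longest bars in each comparison.

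The machinery that builds and removes collagen was followed in 8 lists, in which no gene was called in any comparison. Counts below are of fitted values, and over all genes 51%, 49.2% and 50.3% were lower in the 3 comparisons as ordered above. Among 14 tested enzymes of prolyl and lysyl modification, which stabilise the triple helix, 11, 9 and 10 were lower, and Ppib, the most abundant, ran only from 314 to 367 CPM. P4ha2, a prolyl hydroxylase subunit, had 38.8, 79.8 and 37.1 CPM in isotype tumours and 26.3, 27.4 and 28.4 in BTZ+anti-PDL1 tumours, with a log2 fold change of -0.92 ± 0.364 (adjusted p = 0.565).

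Of 11 genes of folding and secretion 7, 7 and 9 were lower. Serpinh1, the collagen chaperone HSP47, ran from 657 to 1379 CPM and had 0.14 ± 0.351 in BTZ+anti-PDL1 against anti-PDL1. Sparc, a matrix protein that binds collagen, had 608, 900.3 and 708 CPM in anti-PDL1 tumours and 525, 482 and 570.0 in BTZ+anti-PDL1 tumours (-0.49 ± 0.192, unadjusted p = 0.0314). The chaperone thus ranged over tumours while its group means lay close together.

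Of 8 tested genes of propeptide cleavage 5 were lower in each comparison. Adamts2, which removes the N-propeptide of fibrillar collagens, had 6.3, 27.8 and 24.7 CPM in isotype tumours, 16.8, 31.2 and 26.4 in anti-PDL1 tumours and 13, 8.12 and 14.7 in BTZ+anti-PDL1 tumours. The last group lay below the anti-PDL1 group without overlap, at -1.05 ± 0.527 (edgeR unadjusted p = 0.0834). Tll1, a scarce gene of this list (0.962 to 3.22 CPM), was lower in BTZ+anti-PDL1 tumours without overlap in both comparisons. It had -0.86 ± 0.33 against anti-PDL1 and -0.95 ± 0.331 against isotype (edgeR unadjusted p = 0.0268 and 0.017). Bmp1, which removes the C-propeptide, ran only from 397 to 461 CPM.

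Of 6 cross-linking genes 3 were lower in each comparison, and they parted by gene. Loxl1 had -1.29 ± 0.7 and Loxl2 -1.04 ± 0.696 in BTZ+anti-PDL1 against anti-PDL1 (edgeR unadjusted p = 0.106 and 0.179). Loxl3 went the other way, with 106, 98.6 and 103 CPM in anti-PDL1 tumours and 115, 120.3 and 141 in BTZ+anti-PDL1 tumours (0.29 ± 0.0938, unadjusted p = 0.0117).

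Of 13 tested proteins that bind fibrils 4, 8 and 7 were lower. Tnc, a matrix glycoprotein of remodelling tissue, had 254, 422 and 243 CPM in isotype tumours, 212, 321 and 435 in anti-PDL1 tumours and 159.8, 207 and 159 in BTZ+anti-PDL1 tumours. All BTZ+anti-PDL1 values lay below all others, at -0.88 ± 0.305 against anti-PDL1 and -0.81 ± 0.305 against isotype. Postn, periostin, had 88.4, 220.3 and 110.3 CPM in anti-PDL1 tumours and 71.2, 72.3 and 74.2 in BTZ+anti-PDL1 tumours (-0.94 ± 0.362).

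Of 14 tested partners of type IV collagen in basement membranes 4, 12 and 11 were lower, with medians of 0.07, -0.19 and -0.12. Lama2, a laminin chain, had 4.83, 5.49 and 5.8 CPM in isotype tumours, 7.2, 7.92 and 7.16 in anti-PDL1 tumours and 3.7, 5.24 and 2.6 in BTZ+anti-PDL1 tumours. It was highest in the anti-PDL1 group without overlap, as Col14a1 was, at 0.47 ± 0.233 and then -0.95 ± 0.237 (unadjusted p = 0.00272 for the latter). Nid1, the linker of laminin and type IV collagen, ran from 1058 to 1324 CPM.

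Of 10 tested collagen receptors 3, 8 and 7 were lower. Mrc2, which takes up collagen fragments, had 112, 139 and 109.9 CPM in anti-PDL1 tumours and 91.8, 92.7 and 85.7 in BTZ+anti-PDL1 tumours (-0.42 ± 0.118, unadjusted p = 0.00565). Itga10, the alpha chain of a collagen-binding integrin, went the other way, with 7, 4.06 and 5.81 CPM in anti-PDL1 tumours and 7.16, 8.98 and 8.79 in BTZ+anti-PDL1 tumours (0.56 ± 0.204, unadjusted p = 0.0213), above the isotype tumours as well (0.44 ± 0.204). Itgb1, the shared beta chain of the collagen integrins, had -0.04 ± 0.107 in that comparison. Lair1, an inhibitory collagen receptor of leukocytes, had 13.9, 8.96 and 20.5 CPM in isotype tumours and 29.7, 21.5 and 21.8 in anti-PDL1 tumours (0.75 ± 0.282, unadjusted p = 0.0262). Of 10 genes of collagen breakdown 4, 10 and 8 were lower, with medians of 0.15, -0.32 and -0.16. Mmp2, a gelatinase, had 35.9, 66.1 and 37.2 CPM in anti-PDL1 tumours and 21.1, 13 and 24.7 in BTZ+anti-PDL1 tumours (-1.24 ± 0.619, edgeR unadjusted p = 0.084). Timp2, its inhibitor, ran from 478 to 625 CPM.

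The fibroblast markers had 8 of 12 genes higher in anti-PDL1 than in isotype tumours, against 49% of all genes. In BTZ+anti-PDL1 against anti-PDL1 9 of 12 were lower, against 49.2%, and none was called in either comparison. The groups did not overlap there for 3 of 12, all lower, against 6.99% of all genes lower in that way. Dcn had 0.00 ± 0.295, Lum 0.14 ± 0.347, Pdgfra 0.01 ± 0.106 and Dpt -0.04 ± 0.126 in that comparison. Pi16, a marker of adventitial fibroblasts, had 2.26, 7.13 and 7.06 CPM in isotype tumours, 11.1, 14.5 and 5.76 in anti-PDL1 tumours and 3.8, 2.67 and 4.11 in BTZ+anti-PDL1 tumours. Its anti-PDL1 values lay above all BTZ+anti-PDL1 values, as those of Col14a1 did, and overlapped the isotype values. The part of such cells in the Col14a1 levels was not tested.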

How the data were processed

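RNA of 9 tumours was sequenced. The authors deposited a count per gene, not normalised, and FPKM. FPKM was the count divided by 1 length per gene and by the library total (checked over 12343 genes, to within 4.2e-05 of the value). Per the submitters' processing notes HISAT2 2.0.4, StringTie 1.3.3b and the build mm10 were used, without stated roles. The counting program and its strand option are not given in the sources used here. BTZ+anti-PDL1 columns were matched to libraries by treatment label and replicate number.

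Counts were fitted with edgeR 4.0.16 in R 4.3.3 (quasi-likelihood F test, robust, TMM, 3 group means, 6 residual degrees of freedom). After filterByExpr (minimum count 10), 14506 genes were tested. SE is the absolute log2 fold change over the square root of F. Alternatives were RLE scaling, no filter, only the 6 tumours compared, a replicate block, DESeq2 1.42.0, limma 3.58.1 on log2(FPKM + 1) or log2(FPKM + 0.1), a muscle score covariate, and leaving out tumours. Members and lists were chosen with earlier results of these data known. Members given in every tumour are the markers Col1a1, Col1a2 and Col14a1, the 3 most abundant of each class, and per comparison the 3 with the smallest p and the one with the largest change; examples from lists are their most abundant gene or among the 2 with the smallest p in a comparison, others being named as chosen later. The fit was also run on simulated counts with the same dispersion for all genes. That setting does not resemble genes as variable as the type I chains, so it does not bear on the calls for them.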

Additional observations from a re-analysis of the deposited data

How the results depend on the processing

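With edgeR and limma no collagen gene was called under any setting run, and DESeq2 called 1 in anti-PDL1 against isotype and 1 in BTZ+anti-PDL1 against anti-PDL1, Col14a1 in both. Leaving out single tumours kept the counts of called collagen genes at 0. It moved the log2 fold change of Col1a1 in anti-PDL1 against isotype from -0.31 (without isotype 1; -0.23 without anti-PDL1 2) to 0.63, that of Col1a2 from -0.028 (without isotype 1) to 0.95, that of Col14a1 in BTZ+anti-PDL1 against isotype from -0.32 to 0.081 (without isotype 3; 0.056 without BTZ+anti-PDL1 3), and r of Col3a1 with Col5a2 from -0.56 to 0.29 (without isotype 1; 0.11 without isotype 3). The number of members with a lower value was 18 to 21 in BTZ+anti-PDL1 against anti-PDL1, 19 to 24 in BTZ+anti-PDL1 against isotype and 8 (without isotype 2) to 19 (without anti-PDL1 2) in anti-PDL1 against isotype. The ranges of Col1a1, Col1a2 and Col5a2 with each tumour left out, computed after the data were seen, moved by over 1.5 times only without isotype 1. On the log2 FPKM scale 19 members could be fitted. There the fibrillar median in BTZ+anti-PDL1 against anti-PDL1 was -0.73 with a pseudocount of 1 and -0.81 with 0.1, over 6 genes, and 6 of 19 were lower in anti-PDL1 against isotype. Over all genes edgeR called 2, 2 and 1 in the 3 comparisons in the order of the report, DESeq2 14, 52 and 110, the fit without filter 2, 4 and 6, and the fits of 6 tumours 3, 12 and 0. Without the muscle-rich tumour of each group none was called, with 1092, 735 and 1416 genes at an unadjusted p under 0.05. With the replicate number as a block 0 collagen genes were called in each comparison and 1, 1 and 0 of all genes. Deviations from the group means correlated between -0.434 and 0.393 for tumours with the same number and between -0.416 and 0.581 for tumours with different numbers. No pairing by number was seen, but 3 tumours a group are too few to exclude one. Depth limits the scarce members (Col17a1 had 4 to 48 counts a tumour), while the spread between tumours limits type I collagen, with a within-group SD of 1.43 (log2) for Col1a1.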
